A study of Arabidopsis thaliana with 36 samples.

Results

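The set described here holds 86 of the 22746 probe sets on the array that are not controls. Members were chosen by their values on the first and last sampling days: on the log2(signal + 16) scale the mean of a member at day 7 was at least 0.9 below that at day 0 in both lines with a mutant FLC, while in the line with a functional FLC that difference was above -0.3. Signals came from the apical region of soil-grown Arabidopsis thaliana, measured on 36 ATH1 arrays, 1 array per sample. Plants with 10 to 18 leaves were moved from short days to long days at 23 °C and sampled after 0, 3, 5 and 7 long days, here called day 0 to day 7.

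All 3 lines are in the Col background. The line called FRI here has the FRI allele of accession Sf-2 and a functional FLC. FRI flc-3 has the same FRI allele with flc-3, an FLC allele from fast-neutron mutagenesis, and flc-3 has that FLC allele in Col-0 without the introduced FRI allele. Each line had 3 arrays on each of the 4 days, which gave 12 groups. The labels call every FRI array vegetative, FRI flc-3 in transition from day 3 on, and flc-3 in transition at days 3 and 5 and on 1 of its 3 day 7 arrays. At days 3 and 5 line and labelled stage therefore cannot be told apart, and because no group stayed in short days, long days and plant age cannot be told apart either.

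FLC encodes a MADS-domain protein that represses flowering, and FRI raises FLC expression. Long days promote flowering in Arabidopsis, and at the transition the shoot apex stops making leaves and begins to make flowers. The names of FLC and FRI are not in the annotation used here, so the mutant allele was not checked on the arrays. The set of 86 is therefore named by its rule, and its link with FLC is the line comparison only. In a bulk apical sample, fewer cells of a type and less RNA per cell cannot be told apart.

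Of the 86 members, 37 are assigned to a single gene by the annotation, 5 match several genes and 44 have no name in it. All 86 passed the filter on dim probe sets. Of the members, 10 are probe sets with identifiers ending in _s_at or _x_at, whose probes can match several transcripts. The day 7 minus day 0 values chose the set and are given as a description: the median over members was -1.37 in FRI flc-3, -1.24 in flc-3 and -0.073 in FRI. The lowest value in FRI was -0.29 and the highest 0.77. Just inside the limits stood AT1G67860 with -0.902 in flc-3 and AT5G11420 with -0.287 in FRI. Just outside stood AT2G18360 with -0.898 in FRI flc-3, AT4G22490 with -0.893 in flc-3 and TBL36 with -0.305 in FRI. By day 7 the mean signal of 40 members in FRI flc-3, and of 38 for flc-3, was below the 40th percentile of the signals on those arrays, so the size of their day 7 values depends on the offset of 16. At day 5 the same held for 12 members in FRI flc-3 and 4 for flc-3. The rule gave 230 members with an offset of 1.62, 80 of the 86 among them, and 56 with an offset of 32, with 51 of the 86.

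One array stood apart from its group: replicate 3 of FRI flc-3 at day 0, in the group whose lowest correlation between log2 signals of 2 arrays, 0.9846, was below that of every other group. Without that array each count of members called at days 3 and 5 changed by at most 2, with 32 in place of 31 at day 3 and 82 in place of 80 at day 5 against FRI flc-3.

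Days 3 and 5 were not used by the rule. The median signal over the 86 members was 116, 106 and 109 on the FRI arrays of day 0, 106, 106 and 99.7 at day 3, 133, 133 and 134 at day 5, and 106, 107 and 106 at day 7. FRI thus stood near its starting level at day 3 and above it at day 5, and its day 7 level was set by the rule. In FRI flc-3 the same medians were 106, 105 and 103, then 85.5, 83.0 and 83.7, then 65.0, 65.4 and 62.6, and then 23.2, 25.2 and 25.6. In flc-3 they were 108, 107 and 106, then 100.1, 98.7 and 96.0, then 81.3, 77.1 and 80.1, and then 31.1, 29.5 and 28.2. The FRI flc-3 arrays lay below both other lines at day 3, and at day 5 the lines stood apart in the order FRI, flc-3, FRI flc-3.

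**Figure D1:**
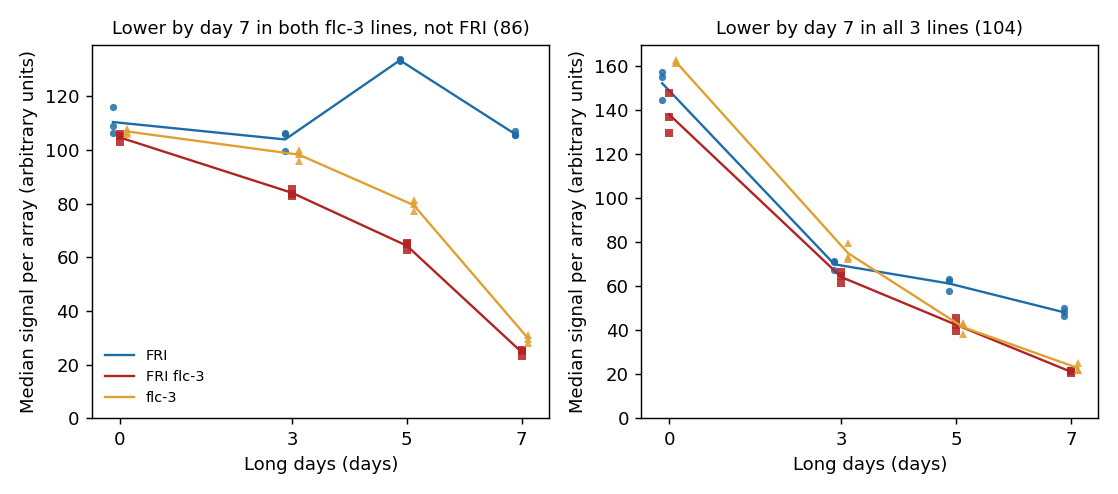
Median signal per array (arbitrary units, y axis) against the number of long days (x axis) over the 86 members (left) and over the 104 probe sets at least 0.9 lower at day 7 in all 3 lines (right). Points are arrays, 3 per line and day, and lines join the group means; at day 5 the FRI arrays of the left panel sit at 133 to 134 and the FRI flc-3 arrays at 62.6 to 65.4.

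At day 3 a first part of the set was higher in FRI. Small differences in that direction were there at day 0, which the rule used and which was not tested. The median day 0 difference over members was 0.076 from FRI flc-3 and 0.079 from flc-3, with 58 and 59 of the 86 above 0. A difference at day 3 is therefore not by itself a change since day 0. Against FRI flc-3, 31 of the 86 members were higher in FRI and none lower, with 1.27% of all 14912 tested probe sets called higher and 0.979% lower. Against flc-3, 18 were higher and none lower, with 0.677% of all tested called higher and 1.18% lower. The median difference over members was 0.27 and 0.13, and over all tested probe sets -0.0070 and 0.00010. Both comparisons use the same 3 FRI arrays, as do all comparisons of FRI below. At an unadjusted p under 0.05, 2 members were lower in each comparison. Calls are two-sided limma tests on the log2(signal + 16) scale at an adjusted p under 0.05, with p-values adjusted by Benjamini-Hochberg over all 14912 probe sets.

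Both day 3 comparisons called 16 members, of which 7 have a gene name: the anthocyanin genes DFR, AT4G14090 and AT5MAT, the serine carboxypeptidase-like gene scpl35, the lipid-transfer-type gene AT5G01870, AT4G02850 of the phenazine biosynthesis-like family and the DUF642 gene AT5G11420. Their largest day 3 difference was in AT5G01870 against FRI flc-3, 0.66 ± 0.07 (SE, adjusted p = 1.83e-07), and in scpl35 against flc-3, 0.65 ± 0.08 (adjusted p = 5.21e-07). AT5G11420 was higher by 0.40 and 0.28 (adjusted p = 0.000295 and 0.0209). Its call against flc-3 ended when any of 5 arrays was left out, with adjusted p of 0.0929, 0.0638 and 0.0637 without FRI replicates 1, 2 and 3, and 0.0944 and 0.072 without flc-3 replicates 1 and 3.

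By day 5 nearly the whole set was higher in FRI. Of the 86 members, 80 were higher in FRI than in FRI flc-3 and none lower, where 7.05% of all tested probe sets were called higher and 5.49% lower. Against flc-3, 75 were higher and none lower, where 9.72% of all tested were called higher and 10.4% lower. The median difference was 0.75 against FRI flc-3 and 0.58 against flc-3, and -0.013 and -0.0064 over all tested probe sets. All 86 differences lay above 0 in both comparisons, from 0.20 to 2.201 and from 0.035 to 1.51. No member was lower at an unadjusted p under 0.05 either. In both comparisons at day 5, 71 members were called, 56 of them not in both at day 3, and 15 were not called in both at day 5. Counts of members called in 2 tests at once, here and elsewhere, are given without the share of all tested probe sets. The lowest FRI array was above all 6 mutant arrays for 80 members at day 5 and 32 at day 3. Among all 14912 tested probe sets this held for 1308 and 425.

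**Figure D2:**
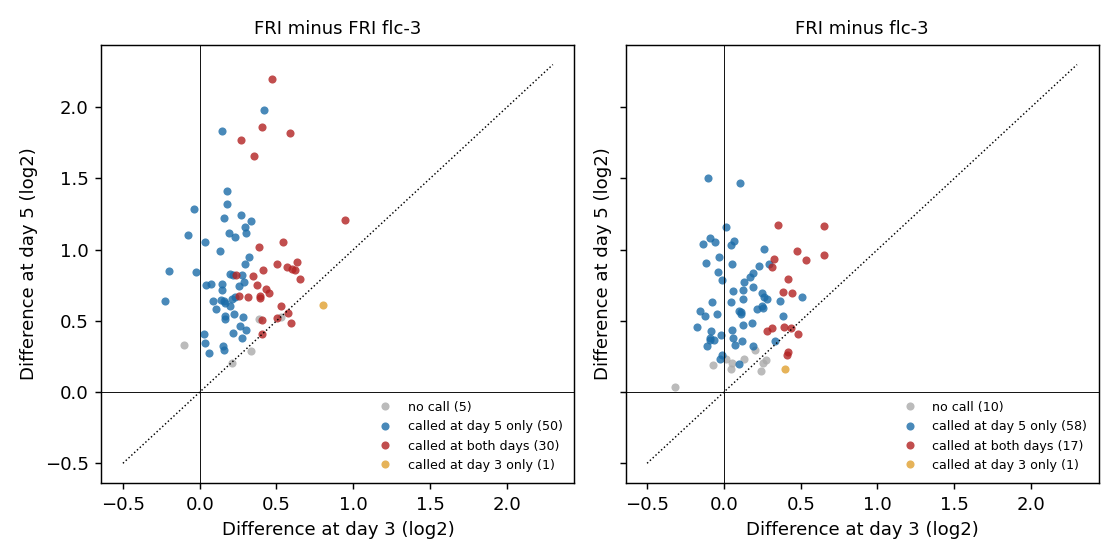
Difference between FRI and FRI flc-3 (left) and between FRI and flc-3 (right) at day 3 (x axis, log2) and day 5 (y axis, log2) for the 86 members, 1 point each; the dotted line marks equal differences and colours give the days called. Most points lie above the line, with medians of 0.27 and 0.75 on the left and of 0.13 and 0.58 on the right.

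From day 3 to day 5 the medians moved apart, with a median change over members of 0.17 for FRI, -0.32 for FRI flc-3 and -0.27 for flc-3. Few single members were called in opposite directions: 5 rose in FRI and fell in both mutant lines, and 45 had no call in FRI. The lowest change of a member, -1.64 for FRI and -2.66 for FRI flc-3, was also the lowest of all tested probe sets. In FRI, 34 members rose and 7 fell, where 4.65% of all tested probe sets rose and 4.1% fell. In FRI flc-3 none rose and 48 fell, where 4.51% of all tested rose and 5.05% fell, and at an unadjusted p under 0.05 the members that rose numbered 2. In flc-3, 2 rose and 39 fell, where 8.13% and 8.07% of all tested rose and fell. Leaving out FRI day 5 replicate 2 lowered the count of 7 to 4, and leaving out flc-3 day 3 replicate 3 or day 5 replicate 2 lowered the count of 2 to 1. The fall was called in both mutant lines for 27 members, in FRI flc-3 alone for 21, in flc-3 alone for 12 and in neither for 26, and a call in 1 line alone is not a test of the difference between lines.

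The test of that difference, the day 5 minus day 3 change in FRI less the change in a mutant line, was called higher for 42 members against FRI flc-3 and for 41 against flc-3, and lower for none, also at an unadjusted p under 0.05. Among all tested probe sets 1.44% and 2.52% were called higher and 0.583% and 1.7% lower. Both of these tests called 31 members. Between the mutant lines the change was lower in FRI flc-3 for 5 members and higher for none, where 0.134% and 0.228% of all tested were called so, and at an unadjusted p under 0.05 the change was higher for 7 members. Of the 34 members that rose in FRI, 17 have a gene name.

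Of the gene lists compared with the set, only that of flavonoid and anthocyanin synthesis held members. Anthocyanins are red to purple flavonoid pigments of vegetative tissue. DFR encodes dihydroflavonol reductase, which makes their colourless precursors, and the others add groups to the finished pigment: UF3GT a xylose, AT4G14090 (UGT75C1) a glucose and AT5MAT a malonyl group. A list of 17 flavonoid and anthocyanin genes had 5 tested members, and these are 4 of them.

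At day 3 the DFR signal was 546, 538 and 472 for FRI, 413, 386 and 379 for FRI flc-3 and 375, 416 and 414 for flc-3. At day 5 it was 561, 519 and 495 for FRI, 254, 259.9 and 237 for FRI flc-3 and 226, 222 and 221 for flc-3. The FRI arrays did not overlap those of either mutant line on either day, and the mutant lines came closer to each other than to FRI. DFR was higher in FRI by 0.39 ± 0.07 and 0.35 ± 0.07 at day 3 (SE, n = 3 per group, adjusted p = 0.000327 and 0.00118 in limma) and by 1.02 ± 0.07 and 1.18 ± 0.07 at day 5 (adjusted p = 4.64e-14 and 1.8e-15). The day 0 means of DFR were 445 for FRI, 353 for FRI flc-3 and 555 for flc-3. FRI was thus above FRI flc-3 before any long day, and the FRI flc-3 mean at day 3, 393, was not below its day 0 mean. Day 0 means stood in the same order for AT4G14090 (294, 268 and 312), UF3GT (302, 262 and 332) and AT5MAT (166, 157 and 175). From day 3 to day 5 DFR fell by 0.62 in FRI flc-3 and by 0.81 for flc-3 on the log2 scale, while its change in FRI was 0.017 (adjusted p = 0.92).

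AT4G14090 followed the same course. Its signal at day 5 was 355, 351 and 319.5 for FRI, 178, 194 and 191 for FRI flc-3 and 165, 161 and 166 for flc-3, again without overlap between FRI and the mutant lines. It was higher in FRI at day 3 by 0.35 and 0.48 (adjusted p = 0.00376 and 5.04e-05) and at day 5 by 0.81 and 0.99 (adjusted p = 1.4e-10 and 1.73e-12). AT5MAT gave 136, 132 and 136 for FRI at day 5 and 79.5, 81.3 and 75.7 for FRI flc-3. It was called on both days as well, with 0.32 and 0.42 at day 3 and 0.67 and 0.79 at day 5. The day 3 calls against FRI flc-3 rest on single arrays: without FRI replicate 2 the adjusted p was 0.0517 for AT4G14090 and 0.0983 for AT5MAT, and for AT5MAT it was 0.0947 without FRI replicate 3 and 0.133 without FRI flc-3 replicate 3.

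UF3GT separated later. At day 3 its differences from FRI flc-3 and flc-3 were 0.16 and 0.23 (adjusted p = 0.566 and 0.323), and at day 5 they were 0.64 and 0.88 (adjusted p = 5.42e-06 and 1.22e-08). The fifth tested gene of the list, UGT78D2, a flavonoid glucosyltransferase, is no member. It was higher in FRI at day 5 by 0.40 and 0.44 (adjusted p = 0.00121 and 0.000326). Thus 3 of the 5 were called higher in FRI in each comparison at day 3 and 5 of 5 at day 5. Earlier results of these arrays had already shown DFR, UF3GT and AT4G14090 higher in FRI, so their direction is not independent of the choice of list.

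**Figure D3:**
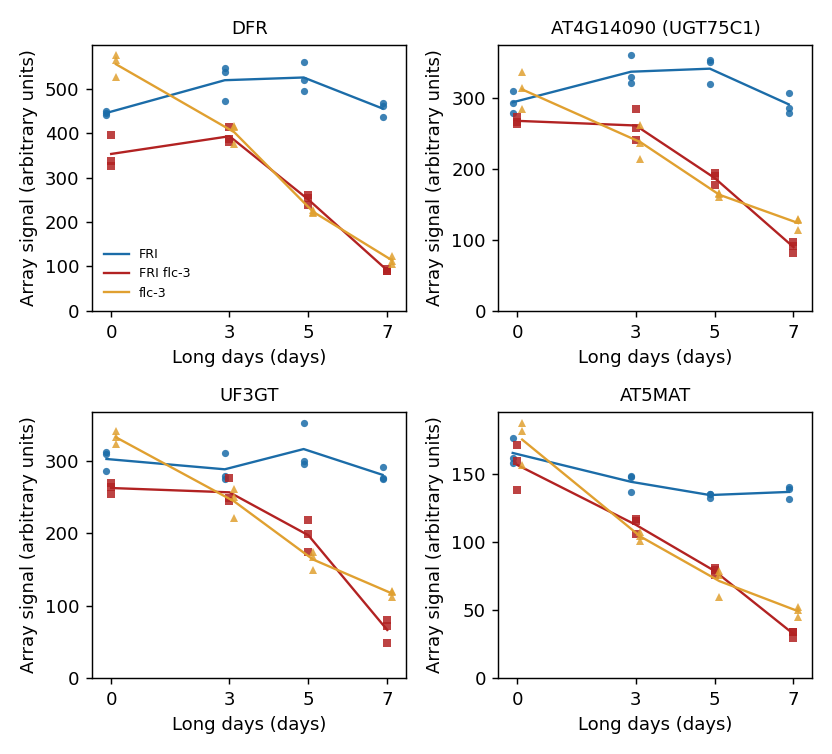
Array signal (arbitrary units, y axis) of the 4 anthocyanin genes against the number of long days (x axis). Points are arrays, 3 per line and day, and lines join the group means; DFR in FRI keeps means of 519 and 525 at days 3 and 5 while FRI flc-3 goes from 392.8 to 250.4.

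The carboxypeptidase-like scpl35 and the lipid-transfer-type AT5G01870 were apart at day 3, as were 3 of the pigment genes. For scpl35 the day 3 signal was 509, 469 and 502 for FRI, 355, 317 and 358 for FRI flc-3 and 318, 319 and 288 for flc-3. At day 5 it was 430.0, 511 and 475 for FRI, 255, 243 and 236 for FRI flc-3 and 202, 204.2 and 196 for flc-3. FRI kept its level, with a change of -0.063 from day 3 to day 5 (adjusted p = 0.694), and the mutant lines fell by 0.46 and 0.58 on the log2 scale. At day 5 scpl35 was higher in FRI by 0.90 and 1.17 (adjusted p = 5e-11 and 8.58e-14).

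AT5G01870, the lipid-transfer-type gene, stood apart from both mutant lines on both days. Its signal at day 3 was 1561, 1589.7 and 1612 for FRI, 1034, 929 and 1047 for FRI flc-3 and 1196, 1112 and 1090.0 for flc-3. At day 5 it was 1384, 1431 and 1412 for FRI, 826, 772 and 815 for FRI flc-3 and 1018, 1051 and 1103 for flc-3, so that the 3 lines did not overlap on that day. The day 5 difference from FRI was 0.80 for FRI flc-3 and 0.41 for flc-3 (adjusted p = 3.41e-10 and 0.000125), and FRI flc-3 was lower than flc-3 by -0.39 (adjusted p = 0.00128). The day 5 minus day 3 change of this gene was not called different from that in FRI, with 0.14 and -0.073 (adjusted p = 0.695 and 0.767): its difference was present at day 3. Its day 0 signals were 1640, 1742 and 1745 for FRI and 1468, 1657 and 1529 for FRI flc-3. In flc-3 they were 1468, 1338 and 1413, below all FRI arrays before any long day. The day 3 difference from flc-3 is therefore not by itself a change since day 0.

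AT4G02850 gave 405, 376 and 372 for FRI, 235, 243 and 233 for FRI flc-3 and 205.6, 208.4 and 192 for flc-3 at day 5. It was higher in FRI by 0.39 and 0.31 at day 3 and by 0.66 and 0.88 at day 5 (adjusted p from 0.000284 down to 8.91e-15). BGLU44, of the beta-glucosidase family, was not called at day 3, 0.029 and -0.043 (adjusted p = 0.937 and 0.905), and was higher in FRI at day 5 by 0.41 and 0.55 (adjusted p = 2.12e-05 and 1.4e-07). Similarly AT5G44400, of the berberine bridge enzyme-like family, went from 0.10 and 0.17 at day 3, neither called, to 0.58 and 0.81 at day 5, both called.

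A second group of members rose in FRI between days 3 and 5. AT1G65500 had day 3 signals of 84.7, 80.2 and 88.1 for FRI, 69.5, 66.0 and 66.3 for FRI flc-3 and 88.5, 99.4 and 88.1 for flc-3. At day 5 they were 194, 188 and 179.8 for FRI, 45.0, 40.2 and 46.2 for FRI flc-3 and 55.6, 57.0 and 54.2 for flc-3. The mean of the FRI arrays went from 84.3 to 188, and both mutant lines went down. The rise in FRI was 1.02 ± 0.07 (adjusted p = 5.3e-12), the fall was 0.48 in FRI flc-3, against 0.59 for flc-3, and the changes differed by 1.50 and 1.61 (adjusted p = 2.12e-12 and 3.16e-13).

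For scpl31, another serine carboxypeptidase-like gene, the day 5 signals were 121, 121 and 149 for FRI, 26.5, 17.3 and 19.8 for FRI flc-3 and 53.9, 53.8 and 57.7 for flc-3. The lines did not overlap. FRI was higher by 1.98 ± 0.12 and 1.04 ± 0.12 (adjusted p = 5.27e-15 and 5.07e-08). At day 3 the differences from FRI were 0.42 and -0.14, neither called (adjusted p = 0.0584 and 0.766).

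AT3G45160 gave 534, 555 and 613 for FRI, 155, 181 and 169.8 for FRI flc-3 and 327, 286 and 312 for flc-3 at day 5. From day 3 to day 5 it rose by 0.68 in FRI and fell by 0.63 in FRI flc-3 on the log2 scale, and its change in flc-3 was -0.20 (adjusted p = 0.102). By day 7, which the rule used, the mutant lines were at 15.0, 11.4 and 11.1 and 10.1, 13.1 and 11.6. In flc-3 the mean was still 309 at day 5, so nearly all of its day 7 value arose after that day.

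AT3G18280, of the lipid-transfer protein type, had day 5 signals of 386, 391.9 and 412 for FRI, 161, 148 and 139.9 for FRI flc-3 and 169.9, 178 and 159 for flc-3. It rose by 0.73 in FRI and fell by 0.41 and 0.42 in the mutant lines (adjusted p = 2.44e-10, 1.42e-05 and 7.8e-06). AT3G18280, AT1G65500 and AT5G44400 are the 3 named ones among 5 members that rose in FRI and fell in both mutant lines, and the fall of AT5G44400 in FRI flc-3 ended as a call when any of 5 arrays was left out, with adjusted p of 0.131 and 0.0685 without day 3 replicates 2 and 3 and 0.0771, 0.104 and 0.0659 without day 5 replicates 1, 2 and 3. AT4G18280 rose in FRI by 0.83 (adjusted p = 1.49e-07), from 67.0, 68.2 and 84.2 to 141, 153 and 134.

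**Figure D4:**
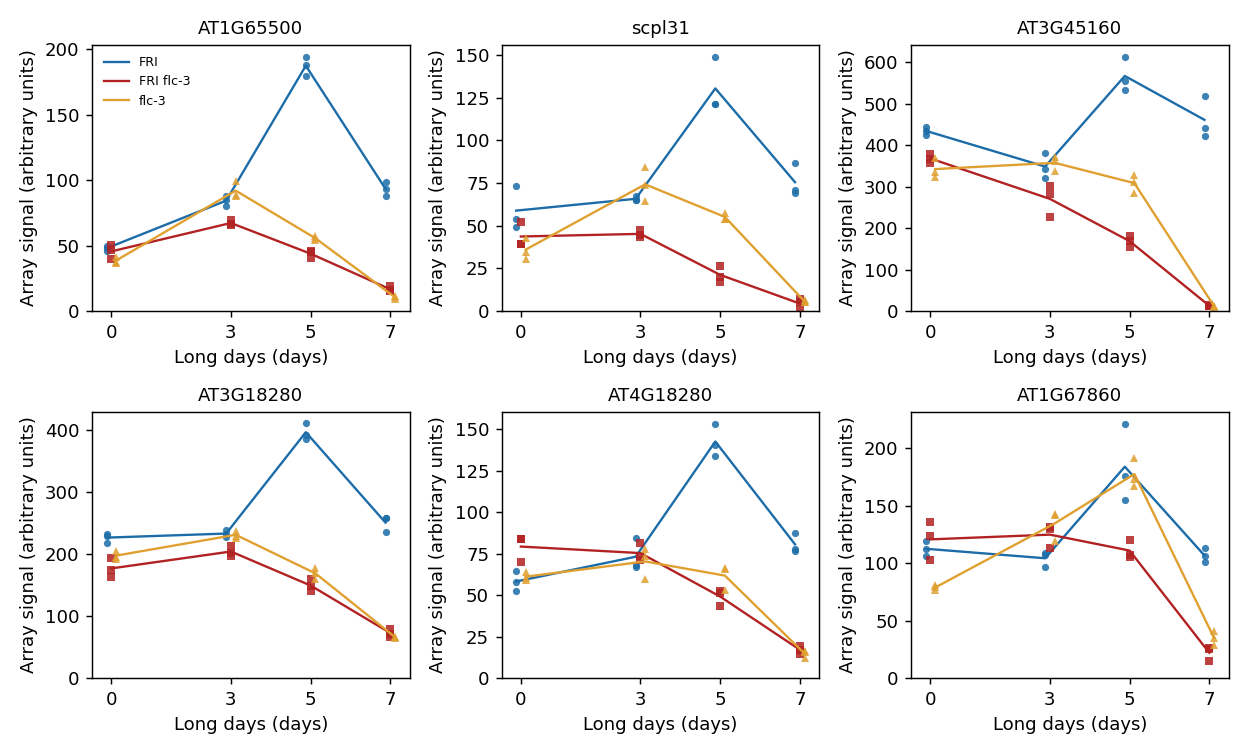
Array signal (arbitrary units, y axis) of 6 members that rose in FRI from day 3 to day 5, against the number of long days (x axis). Points are arrays, 3 per line and day, and lines join the group means; in AT1G67860 the flc-3 line has a day 5 mean of 177, next to 184 in FRI.

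AT5G05960, another lipid-transfer-type gene, was lower at day 3 than at day 0 or day 5 on all FRI arrays. Its FRI signals were 96.7, 105 and 90.4 at day 0, 39.7, 41.9 and 35.2 at day 3 and 95.0, 74.4 and 90.8 at day 5. The day 3 signals of the mutant lines overlapped those of FRI, with means of 42.0 ± 5.82 and 42.6 ± 2.73 (SD, n = 3), and the mean signal of both mutant lines was lower still at days 5 and 7. FRI then rose by 0.90 (adjusted p = 1.18e-06), and the changes in FRI flc-3 and flc-3 were -0.28 and -0.28 (adjusted p = 0.142 and 0.0996). Hence a flat day 0 to day 7 value in FRI can hold a dip: among all 86 members the FRI difference from day 0 ran from -1.05 to 0.65 at day 3 and from -1.02 to 1.67 at day 5.

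Members with no gene name in the annotation used were apart as well. Probe set 262388_at gave 286, 269.6 and 290.4 for FRI, 54.1, 46.1 and 46.4 for FRI flc-3 and 91.0, 95.6 and 88.4 for flc-3 at day 5. It was higher in FRI by 2.201 and 1.47 (adjusted p = 2.89e-22 and 3.4e-17). Another unnamed one, 261881_at, was higher by 1.84 and 1.06.

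Transporter genes showed smaller differences. AT2G26690 (NPF6.2, of the nitrate and peptide transporter family) had day 5 signals of 293, 310.5 and 290.4 for FRI, 168, 189 and 186 for FRI flc-3 and 217, 225 and 233 for flc-3. FRI rose by 0.47 from day 3 (adjusted p = 1.38e-06), and the changes in FRI flc-3 and flc-3 were 0.054 and 0.0031 (adjusted p = 0.69 and 0.979). ZIP6, of the zinc transporter family, was higher in FRI at day 5 by 0.66 and 0.38 (adjusted p = 1.72e-06 and 0.00282), with FRI signals of 70.7, 71.6 and 76.8 and FRI flc-3 signals of 41.1, 40.2 and 40.3.

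The named regulators of transcription were called higher in FRI at day 5 against 1 or both mutant lines. WRKY47, a WRKY factor, gave 52.6, 54.1 and 48.6 for FRI, 28.6, 29.7 and 23.8 for FRI flc-3 and 36.5, 39.7 and 33.6 for flc-3 at day 5. It was higher in FRI by 0.65 and 0.37 (adjusted p = 1.96e-05 and 0.011), and the call against flc-3 ended without flc-3 replicate 3 (adjusted p = 0.0589). The MYB-related gene AT5G05790 was higher by 1.16 and 0.60 (adjusted p = 8.91e-09 and 0.000621), with 92.5, 77.1 and 88.5 for FRI and 24.6, 29.1 and 35.5 for FRI flc-3; its call against flc-3 ended with an offset at the 10th percentile of all values, 1.62 in place of 16 (adjusted p = 0.062). AT1G25550, of the GARP family, was higher by 0.41 and 0.43 (adjusted p = 0.00307 and 0.00147), the former ending as a call without FRI replicate 1 (adjusted p = 0.0586). For bZIP42 the day 5 difference was 0.53 from FRI flc-3 (adjusted p = 4.76e-05) and 0.15 from flc-3 (adjusted p = 0.255).

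Most of the remaining named members were enzymes or proteins of unstated role, and those given here were called against both mutant lines at day 5. The peroxidase AT5G58390 was higher in FRI by 0.82 and 0.95, the aspartic protease AT1G62290 by 1.2004 and 0.65, and the polygalacturonase-like AT1G60590 by 0.34 and 0.46 (adjusted p from 0.00479 down to 1.36e-09 over the 6 values). AT1G49310 was higher by 1.86 and 1.01, AT3G19030 by 0.95 and 0.91 and AT5G38320 by 0.52 and 0.36 (adjusted p from 0.00216 down to 7.22e-16). AT1G49310 had signals of 10.6, 10.9 and 11.2 in FRI flc-3 at day 5, below the 40th percentile, and over the alternatives its difference from that line ran from 1.41 to 2.74. It was called against FRI flc-3 at day 3 too, 0.41 (adjusted p = 0.0265), a call that ended without any 1 of the 6 arrays (adjusted p from 0.0564 to 0.115) and with the offset of 1.62 (0.332).

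In the copper amine oxidase AT1G31710 the day 5 differences were 0.30 and 0.47 (adjusted p = 0.0115 and 5.62e-05), and the call against FRI flc-3 ended without FRI replicate 2 (adjusted p = 0.0614) or FRI flc-3 replicate 2 (adjusted p = 0.0751). In LigB the differences were 0.44 and 0.37, and the call against flc-3 ended without FRI replicate 1 or flc-3 replicate 2 (adjusted p = 0.112 and 0.0979). In the WD40-repeat gene AT5G50120 they were 0.83 and 0.26 (adjusted p = 2.44e-08 and 0.0457). Its call against flc-3 ended without any 1 of FRI replicates 1 and 2 and flc-3 replicates 1, 2 and 3 (adjusted p = 0.18, 0.0979, 0.0855, 0.102 and 0.108) and under 4 other settings (adjusted p from 0.0567 to 0.151).

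Some members were not called against both mutant lines at day 5. A missing call is not a lack of difference. At an unadjusted p under 0.05 in limma, 86 members were higher in FRI than in FRI flc-3 at day 5, and 80 than in flc-3. AT5G43180 was called in none of the 4 comparisons: its day 5 signals were 33.1, 51.1 and 44.0 for FRI, 37.5, 27.0 and 27.4 for FRI flc-3 and 35.0, 29.0 and 37.1 for flc-3, with overlap of the 3 lines and differences of 0.33 and 0.23 (adjusted p = 0.144 and 0.264). At day 7 the mutant arrays were at 10.6, 0.663 and 7.33 and 4.66, 6.17 and 2.11. The jacalin-related lectin AT1G52100 varied between arrays, with a day 5 difference of 0.61 ± 0.22 from FRI flc-3 (adjusted p = 0.0604). It was called against flc-3 at day 5, 0.67 (adjusted p = 0.027), and against FRI flc-3 at day 3, 0.80 (adjusted p = 0.0382). The day 5 call ended without FRI or flc-3 replicate 1 or 2 (adjusted p = 0.0555 and 0.115 for FRI, 0.0746 and 0.121 for flc-3), and the day 3 call without FRI or FRI flc-3 replicate 1 or 2 (adjusted p = 0.13 and 0.166 for FRI, 0.0594 and 0.393 for FRI flc-3). Each also ended under 3 other settings, with adjusted p up to 0.0857 and 0.18. AT5G36160, a tyrosine aminotransferase, and AT2G30990 and AT2G28780 had differences of 0.23, 0.16 and 0.19 from flc-3 (adjusted p = 0.0715, 0.179 and 0.226), none called. Against FRI flc-3 they were called, with 0.33, 0.28 and 0.76 (adjusted p = 0.015, 0.0231 and 4.16e-06). The call of AT5G36160 ended without FRI replicate 2 or FRI flc-3 replicate 1 (adjusted p = 0.172 and 0.0676), and that of AT2G30990 without FRI replicate 2 or 3 or FRI flc-3 replicate 3 (adjusted p = 0.128, 0.0565 and 0.0998).

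The 2 mutant lines were not at the same level for part of the set. At day 5, FRI flc-3 was below flc-3 for 30 of the 86 members and above it for 4, where 2.72% and 2.28% of all tested probe sets were called so. At day 3 the counts were 11 lower and 2 higher, where 0.51% and 0.154% of all tested were called. The count of 11 was 5 without FRI flc-3 day 3 replicate 1 or flc-3 day 3 replicate 2. The count of 2 was 0 without either of these and 1 without any of the other 4 day 3 arrays of the 2 lines. The count of 4 was 0 without FRI flc-3 day 5 replicate 2, 2 without flc-3 day 5 replicate 1 and 1 without any of the other 4 day 5 arrays. Lower levels in FRI flc-3 were not particular to the 86. Of the 104 probe sets that fell in all 3 lines, 19 were lower and 2 higher in FRI flc-3 at day 3, and 25 and 6 at day 5. Of 146 tested probe sets with an intermediate fall in FRI, 8 were lower and 0 higher at day 3, and 35 and 7 at day 5.

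Among the named genes lower in FRI flc-3 than flc-3 at day 5 were scpl31 at -0.94 (adjusted p = 1.51e-06), AT1G49310 at -0.86, AT3G45160 at -0.81 and AT1G67860 at -0.61 (adjusted p = 7.35e-07, 3.4e-08 and 0.000504). The sizes for the dim scpl31 and AT1G49310 depend on the setting, from -1.33 to -0.72 and from -1.45 to -0.59, so these genes have no fixed order. AT1G67860 gave 155, 175 and 221 for FRI, 120.5, 107 and 105 for FRI flc-3 and 173, 191 and 167 for flc-3 at day 5. In flc-3 it stood beside FRI on that day, with a difference of 0.035 (adjusted p = 0.855), and in FRI flc-3 below it by 0.64 (adjusted p = 4.17e-05). Among the anthocyanin genes, DFR, AT4G14090, UF3GT and AT5MAT differed between the mutant lines by 0.16, 0.18, 0.24 and 0.12, none called (adjusted p from 0.136 to 0.388).

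The timing can be described as the part of the day 7 minus day 0 value that was present at day 5, a quantity that uses the arrays of the rule and is given without a test. Its median over members was 41.2% for FRI flc-3 and 24.1% for flc-3, and at day 3 it was 13.1% and 3.51%. For 58 of the 86 members the day 5 part was smaller in flc-3. At least 50% was present at day 5 for 20 members of the set in FRI flc-3 against 22 in flc-3, and under 25% for 23 and 44. The anthocyanin genes were among those with a larger part in flc-3, with 73.2% for AT5MAT, 70.4% for AT4G14090, 68.8% for UF3GT and 58.8% for DFR, against 47.1%, 33.8%, 22% and 26.2% in FRI flc-3. These parts depend on the day 0 and day 7 levels, and each of these genes had higher means in flc-3 than in FRI flc-3 on both days. DFR means at days 0 and 7 were 555 and 114 in flc-3 and 353 and 91.3 in FRI flc-3. Those of UF3GT were 332 and 117 in flc-3 and 262 and 66.6 in FRI flc-3. A larger part is therefore not by itself an earlier fall. Late ones in flc-3 were AT1G49310 at 5.26% and AT3G45160 at 3.89%, and scpl31 and AT1G67860 stood above their day 0 level.

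**Figure D5:**
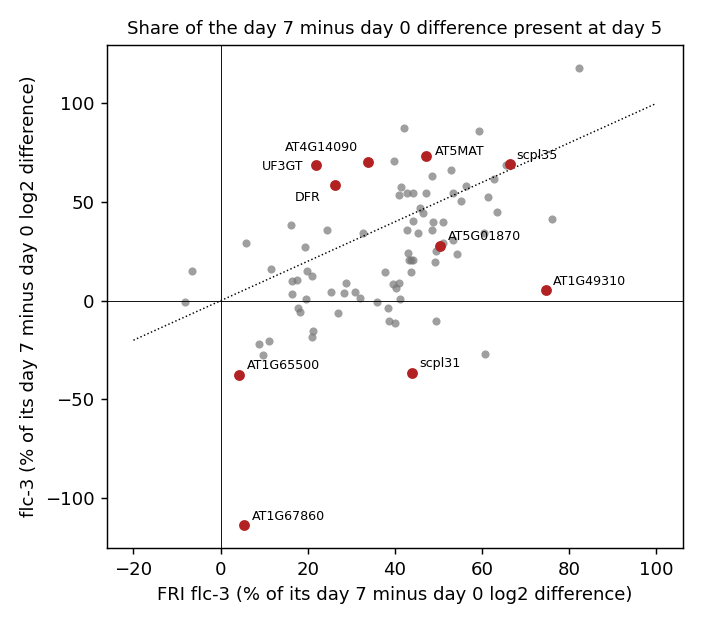
Percent of the day 7 minus day 0 log2 difference present at day 5 in FRI flc-3 (x axis) and in flc-3 (y axis), 1 point per member, with 10 named genes in red and a dotted line of equal percent. Negative values are members above their day 0 level at day 5; medians are 41.2% and 24.1%.

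A comparison set holds the 104 probe sets at least 0.9 lower at day 7 in all 3 lines. Their median difference from day 0 in FRI was already -1.01 at day 3 and -1.11 at day 5, where that of the 86 members was 0.016 and 0.18. The rule split the 2 sets by day 7 minus day 0 in FRI. This gap uses the same FRI day 0 arrays and can therefore in part be set by the rule. At day 5, 59 of the 104 were higher in FRI than in FRI flc-3 and 5 lower, and 59 and 6 against flc-3. From day 3 to day 5 in FRI 10 of them rose and 26 fell. In FRI flc-3, 2 of the 104 rose and 64 fell, and in flc-3, 2 rose and 70 fell. Their change was called higher in FRI for 26 and lower for 5 against FRI flc-3, and for 39 and 0 against flc-3. Moving apart of the lines between these days was therefore not particular to the 86 members. A further 147 probe sets fell short of -0.9 in FRI without staying above -0.3, and 99 of the 146 tested were higher in FRI at day 5 in each comparison.

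Other lists of genes show what else differed on these arrays. Of 201 genes on 18 lists, 33 were tested, and 5 lists had none tested. Of the 4 tested genes that promote flowering or join its signals, 2 stood lower in FRI in both day 3 comparisons, FD, a bZIP partner of FT, among them with -0.61 and -0.65 (adjusted p = 0.00063 and 0.000225). At day 5, 3 of the 4 were lower against FRI flc-3 and 4 of 4 against flc-3, with FD at -0.73 and -0.90 (adjusted p = 6.51e-06 and 1.7e-07). The gene called against flc-3 alone, UFO, was dim, with day 5 means of 2.82 in FRI and 12.2 in flc-3. The 40th percentile of the arrays was 19.8 to 24.8, and only the UFO mean in flc-3 at day 7, 24.7, was above 19.8. UFO may thus have passed the filter only through flc-3, where it was highest, and its call adds little to the count. The call of AGL24 against FRI flc-3, -0.32 (adjusted p = 0.0167), ended without FRI replicate 1 or FRI flc-3 replicate 1 or 3 (adjusted p = 0.268, 0.0796 and 0.0847). SMZ, a repressor of flowering of the AP2 family, was higher in FRI at day 5 by 0.60 and 0.46 (adjusted p = 5.1e-05 and 0.00134). All 3 tested genes of aliphatic glucosinolate synthesis were higher in FRI at day 5 in both comparisons, among them BCAT4 by 1.79 and 0.94 (adjusted p = 1.34e-19 and 8.54e-12). At day 3 BCAT4 and GSLOH were lower in FRI than in flc-3, by -0.88 and -0.84 (adjusted p = 2.82e-10 and 1.05e-06), and no gene of the list was called against FRI flc-3; the call of GSLOH ended with the offset of 1.62 (adjusted p = 0.0587). For UGT74C1 the call against flc-3 ended without FRI replicate 3 or flc-3 replicate 3 (adjusted p = 0.0547 and 0.0744). THI2.1, a thionin of the jasmonate and wounding list, was lower in FRI than in FRI flc-3 at day 5 by -0.76 (adjusted p = 1.67e-06).

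Leaf tissue in the apical samples was followed with 28 photosynthetic genes, of which 5 were tested. Their median differences from FRI flc-3 and flc-3 at day 5 were -0.038 and 0.10 with none called, beside 0.75 and 0.58 over the 86 members. At day 3 the medians were 0.15 and 0.12, with LHCB4.2 higher in FRI than in FRI flc-3 by 0.23 (adjusted p = 0.0169), a call that ended without any 1 of 5 of the 6 arrays compared (adjusted p from 0.0605 to 0.111). The stomatal gene FAMA was higher in FRI than in flc-3 at day 5 by 0.38 (adjusted p = 0.00989; 0.0698 without flc-3 replicate 3 and 0.0512 after quantile normalization), and SPCH gave 0.15 (adjusted p = 0.411). The tested trichome gene TRY and meristem gene LAS were not called in any of the 4 comparisons, and vascular, epidermis and floral organ genes of the lists were not tested. Whether tissue makeup had a part in the results was not tested.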

How the data were processed

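Affymetrix ATH1 signals of 36 arrays were deposited as 1 linear intensity per probe set, and the authors used MAS5 to make them, per the submitters' processing notes; version and scaling are not given in the sources used here. The 2%-trimmed mean of each array lay between 100.0072 and 100.0085, so no further scaling was applied. After 64 control probe sets were left out of 22810, signals were taken as log2(signal + 16). Tested were the 14912 of 22746 probe sets above the 40th percentile of their array on at least 3 of the 36 arrays.

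A model with 1 mean for each of the 12 groups was fitted with limma 3.58.1 in R 4.3.3 (24 residual degrees of freedom, moderated variances with a trend on mean signal). The 12 comparisons use only day 3 and day 5 means, because the rule used days 0 and 7. p-values are two-sided and adjusted by Benjamini-Hochberg over the 14912 probe sets, with calls at an adjusted p under 0.05. Errors of differences are standard errors of the fit. The labels do not say whether replicates came from separate sets of plants, so p-values measure only the spread between these samples, which may be technical. The number of arrays limits the precision, and the median signal of an array was 40.6 to 43.3. The code was tested on simulated data.

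Members and gene lists were chosen with earlier results of these data known. All 37 members assigned to 1 gene could be named, with at most 2 members without a name and up to 2 tested genes of each list without a member, and the ones described were the members with the largest differences between lines, the highest signal, the threshold neighbours or no call; FD, BCAT4, LHCB4.2, FAMA, SMZ, THI2.1, UGT74C1, AGL24 and the other non-members were taken from the lists, AGL24, GSLOH and LHCB4.2 after their values were seen. The platform annotation lists 14016 of the probe sets, 13513 with 1 gene, of which 13436 matched the RefSeq gene table by gene identifier. FLC, FRI and SOC1 were not reported by name. Promoter sequences were not used here.

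Alternatives changed the offset, the normalization between arrays, the filter, the replicate number as a block, array weights, the variance trend, the arrays in the fit, the limits of the rule and the arrays left out. Figures were drawn with matplotlib 3.10.9 in Python 3.11.15.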

Additional observations from a re-analysis of the deposited data

Results flagged for a closer look

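The results listed here are those in which the change from day 3 to day 5 differed between 2 lines by the test of that difference in limma. Against FRI flc-3 the change was higher in FRI for 42 of the 86 members, and against flc-3 for 41. Between the mutant lines it was lower in FRI flc-3 for 5 members. That count of 5 was 2 without FRI flc-3 day 3 replicate 3 or flc-3 day 5 replicate 2, and 3 without FRI flc-3 day 5 replicate 1, flc-3 day 3 replicate 1 or flc-3 day 3 replicate 3.

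Named members called against both mutant lines are given here with the difference of changes on the log2 scale, FRI flc-3 first and flc-3 second. Above 1 in the first were scpl31 1.56 and 1.17, AT1G65500 1.50 and 1.61, AT1G49310 1.46 and 0.75, AT4G18280 1.32 and 0.98, AT3G45160 1.31 and 0.88, AT5G05960 1.18 and 1.18 and AT3G18280 1.14 and 1.15. Smaller values came from DFR 0.64 and 0.82, AT5G58390 0.55 and 0.98, AT5G44400 0.48 and 0.64, AT4G14090 0.46 and 0.51, AT2G26690 0.42 and 0.47, scpl35 0.40 and 0.52 and BGLU44 0.38 and 0.59. Between the mutant lines AT1G49310 was called at -0.71 (adjusted p = 0.0148).

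Some of these calls rest on few arrays. In the comparison with FRI flc-3, AT5G58390 lost its call without FRI day 3 or day 5 replicate 1 (adjusted p = 0.0785 and 0.0623) and without FRI flc-3 day 3 or day 5 replicate 2 (adjusted p = 0.128 and 0.0979). BGLU44 lost it without FRI day 3 replicate 2 (0.102), FRI day 5 replicate 1 (0.081), FRI flc-3 day 3 replicate 1 (0.0558) and FRI flc-3 day 5 replicate 3 (0.0745), all adjusted p. The value of scpl35 had an adjusted p of 0.0491 and lost its call without any array but FRI day 5 replicate 1 and FRI flc-3 day 3 replicate 2, with adjusted p from 0.0557 to 0.154. The value of AT1G49310 between the mutant lines lost it without FRI flc-3 day 3 replicate 3 (0.0513), flc-3 day 3 replicate 2 (0.0676) and flc-3 day 5 replicate 2 (0.0605), all adjusted p. With an offset at the 10th percentile of all values, 1.62 in place of 16, the calls also ended for AT5G58390 against FRI flc-3 (adjusted p = 0.0831) and for AT1G49310 against flc-3 and between the mutant lines (adjusted p = 0.108 and 0.107). The value of scpl35 against FRI flc-3 ended as a call with that offset (adjusted p = 0.0573), with no filter (0.0734), with the replicate number as a block (0.0505) and without the trend in the variance (0.0707), all adjusted p.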

How the results depend on the processing

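No alternative turned the direction of a called value. Of 200 values called for named members, 152 stayed called under every alternative run, 42 lost the call when at least 1 array was left out and 25 under at least 1 other alternative. Most sensitive were the comparisons of the mutant lines with each other. At day 3 the 2 members higher in FRI flc-3 became 1 with an offset of 1.62, with no filter or with array weights, and the 11 lower became 7 with that offset. At day 5 the 4 higher became 2 without the variance trend. For the change from day 3 to day 5, the 2 members that rose in flc-3 became 1 with a filter at the 60th percentile. The 5 whose change was lower in FRI flc-3 than that of flc-3 became 3 with the offset of 1.62 and 8 with array weights, and 1 with a higher change, where there had been 0, was called after quantile normalization, after scaling to a common 75th percentile and with array weights. The rule itself gave 230 members with the offset of 1.62, 56 with an offset of 32, 52 with limits of -1.0 and -0.2 and 131 with limits of -0.8 and -0.4, beside 86. The cause was not tested.

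With 1 array left out at a time, the 31 and 18 members higher in FRI at day 3 ran from 25 to 29 and from 15 to 16, and the 80 and 75 at day 5 from 77 to 80 and from 67 to 71. The 11 and 2 between the mutant lines at day 3 ran from 5 to 9 and from 0 to 1, and the 30 and 4 at day 5 from 24 to 27 and from 0 to 2. For the change from day 3 to day 5, the 34 and 7 in FRI ran from 30 to 31 and from 4 to 6, the 48 in FRI flc-3 from 42 to 43, and the 39 and 2 in flc-3 from 33 to 37 and from 1 to 2. The differences of change, 42, 41, 5 and 0, ran from 39 to 43, from 36 to 40, from 2 to 5 and from 0 to 1, and the number of members from 81 to 90. Leaving out FRI flc-3 day 0 replicate 3, which stood apart on day 0, was chosen after seeing the data and ended no call of a named member; the counts it moved went from 31 to 32, 11 to 12, 80 to 82, 48 to 49, 39 to 40 and 5 to 6.

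With the replicate number as a block, 30 and 18 members were higher in FRI at day 3 and 80 and 75 at day 5, and 3 of the 444 values of named members lost their call. Deviations of same-numbered arrays from their group means had a median correlation of -0.0047 over 198 pairs, with 13 pairs over 0.1 and a highest value of 0.41. For arrays with different numbers the median was 0.0008 over 396 pairs, with 32 over 0.1 and a highest value of 0.17. The medians thus show no general pairing by number, and whether some same-numbered arrays were handled together was not tested. Dim signals limit the size of the day 7 values. The planned search of promoters for sequence motifs was not run.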
